A study of Homo sapiens with 2 samples.

Results

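Olfactory receptor genes stand in long tandem clusters, and 3 of these clusters were examined for peaks of a Myocardin chromatin immunoprecipitation. In GRCh37, the human assembly that the positions match, the first spans chromosome 11 from 55 to 56.6 Mb (the 11q11-q12.1 cluster). The next spans chromosome 11 from 4.389 to 6.22 Mb, without the beta-globin genes between 5.23 and 5.31 Mb (the 11p15.4 cluster). The last spans chromosome 1 from 247.6 to 248.9 Mb (the 1q44 cluster). The members are all peak summits inside these bounds, chosen by position alone. They number 99 of the 105637 summits in the list, with 27 in the 11q11-q12.1 cluster, 36 in the 11p15.4 cluster and 36 in the 1q44 cluster. The clusters cover 4.651 Mb in all.

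The list comes from A549, a human lung adenocarcinoma line that stably overexpressed MYOCD from the pWPI vector. Both libraries carried this overexpression, 1 precipitated with an anti-Myocardin antibody and 1 with IgG, and no line without it was compared. The list does not say which library a summit came from, and no source used here states how deeply the libraries were sequenced. There is no replicate, so intervals below cover counting error only, treat summits as independent, and do not describe variation between experiments.

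Olfactory receptors are G protein-coupled receptors of sensory neurons in the nose. Each such neuron expresses one allele of one receptor gene, and most other tissues keep the clusters inactive. Myocardin is a coactivator without DNA-binding of its own at its classical targets, where it acts through serum response factor (SRF) bound to the CArG box. No expression, histone mark or accessibility was measured here, so whether the clusters are silent in these cells was not tested.

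By gene order in RefSeq (GRCh38.p14), the runs taken to stand for the clusters hold 144 protein-coding olfactory receptor genes. The 11q run, from TRIM48 to OR5AK2, has 46, of which 24 belong to family OR5. The 11p run, from OR52B4 to OR52W1, has 55, all with the family numbers of class I (fish-like) receptors. It also holds 15 other genes, among them 5 globin genes and 7 symbols of the TRIM family, which includes the antiviral restriction factor TRIM5. The 1q run lies between NLRP3, an inflammasome sensor, and LYPD8. It has 43 receptor genes, 33 of them of family OR2, and as other genes only GCSAML and TRIM58. The bounds of these runs in GRCh37 were not determined, so a run can extend past its cluster. No summit was assigned to a gene.

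RefSeq promoter windows, from 250 bases before to 50 bases after each gene start, were found for 118 of the 144 receptor genes. Their median GC content was 36.7%, against 58.7% over all 35116 windows, and they held a median of 1 CpG dinucleotide, against 14. To show the GC content, the upstream 250 bases are printed for the gene closest to its median in each run. They read 5′ to 3′, with every CpG in capitals. Chosen on GC content alone, the printed pieces hold 2, 2 and 6 CpG in the order below. The full windows of these runs held medians of 1, 1 and 2, so the pieces are richer in CpG than is typical. The genes are OR4S2 of the 11q run (chr11:55648077-55648326, plus strand), OR52A5 of the 11p run (chr11:5138357-5138606, minus strand) and OR14L1 of the 1q run (chr1:247616893-247617142, plus strand), all in GRCh38.p14.
OR4S2: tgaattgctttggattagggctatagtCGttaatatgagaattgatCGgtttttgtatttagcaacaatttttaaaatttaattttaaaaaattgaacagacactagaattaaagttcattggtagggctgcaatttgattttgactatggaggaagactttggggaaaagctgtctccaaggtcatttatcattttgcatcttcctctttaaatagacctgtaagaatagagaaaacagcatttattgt
OR52A5: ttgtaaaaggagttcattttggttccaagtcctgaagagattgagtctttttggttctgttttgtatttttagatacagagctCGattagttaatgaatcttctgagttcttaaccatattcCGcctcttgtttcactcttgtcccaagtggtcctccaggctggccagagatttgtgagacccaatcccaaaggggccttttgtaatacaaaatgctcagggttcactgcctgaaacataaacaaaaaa
OR14L1: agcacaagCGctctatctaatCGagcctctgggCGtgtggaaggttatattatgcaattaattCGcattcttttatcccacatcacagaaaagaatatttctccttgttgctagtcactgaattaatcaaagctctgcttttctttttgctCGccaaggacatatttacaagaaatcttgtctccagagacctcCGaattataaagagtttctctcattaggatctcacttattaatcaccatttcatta

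The consensus CArG box, which reads the same way on both strands, occurred in 1 of the 118 receptor windows, a share of 0.847%. Over all RefSeq windows it occurred in 454, a share of 1.29%. The one match lay just after the start of OR2T12 in the 1q run (chr1:248303385-248303414 in GRCh38.p14, minus strand). It is printed with 10 bases on each side and the box in capitals.
OR2T12: tatgtttttgCCTTTTTAGGaaactacaat

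All 3 clusters were sparser in summits than their own flanks. The 11q11-q12.1 cluster carried 16.9 summits per Mb (exact Poisson 95% interval 11.1 to 24.6), the 11p15.4 cluster 20.6 (14.4 to 28.5) and the 1q44 cluster 27.7 (19.4 to 38.3). These 3 intervals overlap. The flanks reached up to 2 Mb on each side and covered 2.285, 4.0 and 2.351 Mb in the same order. Their density was 35.01, 65.0 and 59.6 summits per Mb. The ratio of cluster to flanks was therefore 0.482 (exact conditional binomial 95% interval 0.299 to 0.754) for the 11q11-q12.1 cluster. It was 0.316 (0.217 to 0.449) for the 11p15.4 cluster and 0.465 (0.313 to 0.675) for the 1q44 cluster. For the 3 together it was 0.383 (0.305 to 0.476), from 99 summits in the clusters and 480 in the flanks.

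The flanks are unequal. By RefSeq gene order, further receptor genes lie beyond both chromosome 11 runs. Among them are OR2AG2 to OR2D3 after the 11p run, OR4A5 directly before the 11q run and OR9Q1 to OR5B21 after it. These are not a full list, and which receptor genes fall in the 2 Mb flanks was not determined. To the left of the 11q11-q12.1 cluster lies the longest peak-free stretch of chromosome 11, from 51591126 to 54715009. Only 285.0 kb with 1 summit remained on that side. The cluster was denser than this piece, which carried 3.51 summits per Mb, and its ratio to the flanks rests on the right flank. That right flank held 79 summits over 2 Mb. To the right of the 1q44 cluster the chromosome ends after 350.6 kb, which held 14 summits, while its left flank held 126. The 11p15.4 cluster had 152 summits in its left flank and 108 in its right flank.

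**Figure D1:**
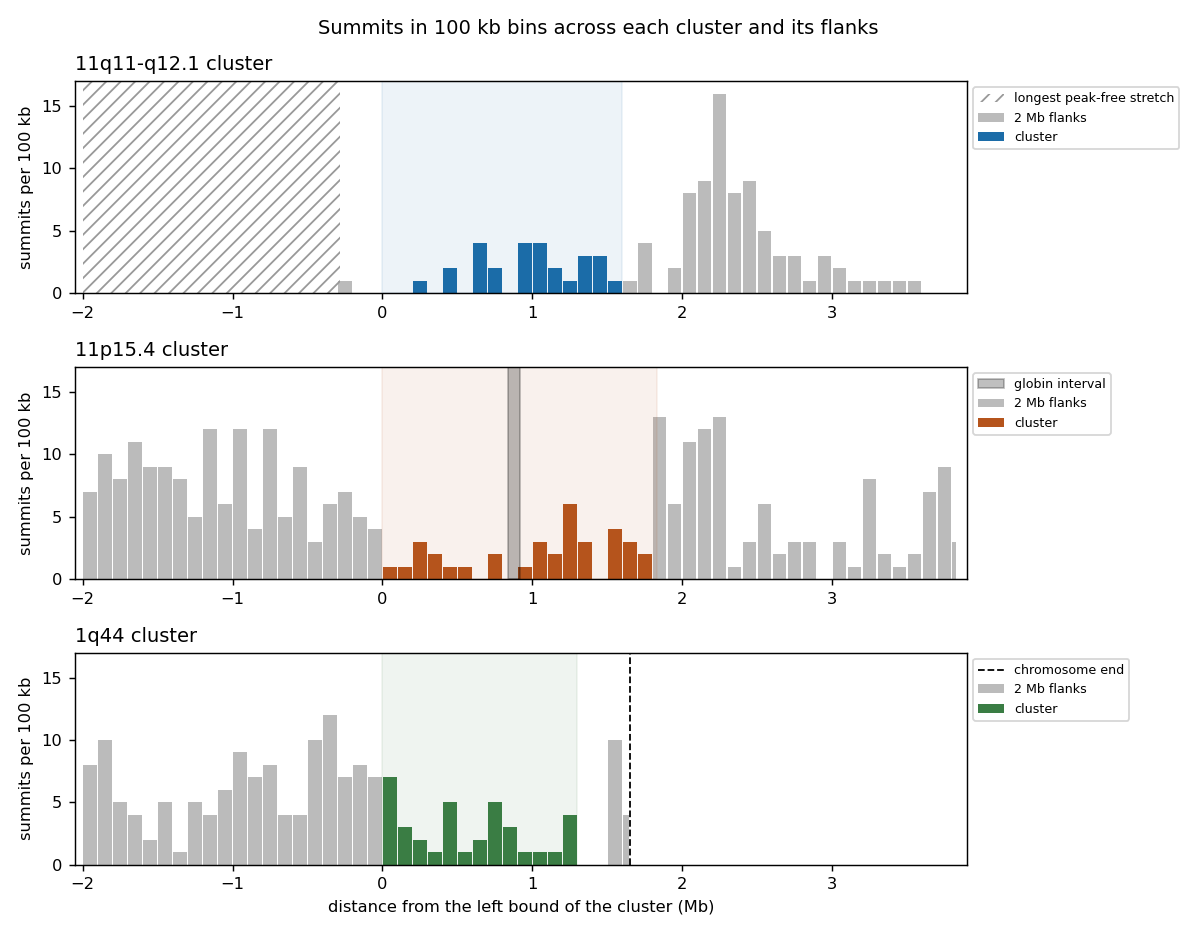
Summits per 100 kb bin (y axis, count) against distance from the left bound of each cluster (x axis, Mb); coloured bars lie in the cluster, grey bars in the 2 Mb flanks or across a bound, and the last bar before a flank's end can be narrower than 100 kb. No bin that lies wholly in a cluster exceeds 7 summits, and the grey bars are higher on both sides of the 11p15.4 cluster, to the left of the 1q44 cluster and about 0.4 Mb beyond the right bound of the 11q11-q12.1 cluster.

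Set against their chromosomes, the clusters lay below the mean density but among many windows as sparse. Outside the clusters chromosome 11 carried 38.6 summits per Mb (37.5 to 39.7), above the intervals of both its clusters. Chromosome 1 carried 35.8 (35.0 to 36.6), inside the interval of the 1q44 cluster. Density was skewed along both chromosomes, with medians below these means. Every window of equal length on a 50 kb grid was counted, leaving out windows that touched a cluster or the longest peak-free stretch. On chromosome 11 the median window carried 25.6 summits per Mb, and 26.3% of 2463 windows were as sparse as the 11q11-q12.1 cluster or sparser. For the 11p15.4 cluster this share was 36.6% of 2454 windows, around a median of 25.7. For the 1q44 cluster it was 45.8% of 4479 windows of chromosome 1, around a median of 31.5. The ratio to the median window was 0.659 (0.434 to 0.958), 0.800 (0.560 to 1.11) and 0.878 (0.615 to 1.22) in the same order, and only the interval of the 11q11-q12.1 cluster excluded 1. That interval extended past 1 when summits less than 1.5 kb apart were counted once.

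The flanks stood at different heights on this scale. The density of both flanks together was at or above that of 60.7% of the windows for the 11q11-q12.1 cluster, 81.8% for the 11p15.4 cluster and 86.0% for the 1q44 cluster. These flanks measured 2.285, 4.0 and 2.351 Mb, longer than the windows they were ranked against. The right flank of the 11q11-q12.1 cluster had 39.5 summits per Mb, at or above 64.0% of the windows. Its left flank had 3.51 (exact Poisson 95% interval 0.0888 to 19.6) over only 285.0 kb. The 1 summit there is the one that ends the peak-free stretch left out, so this short piece is not ranked against windows of 1.6 Mb.

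**Figure D2:**
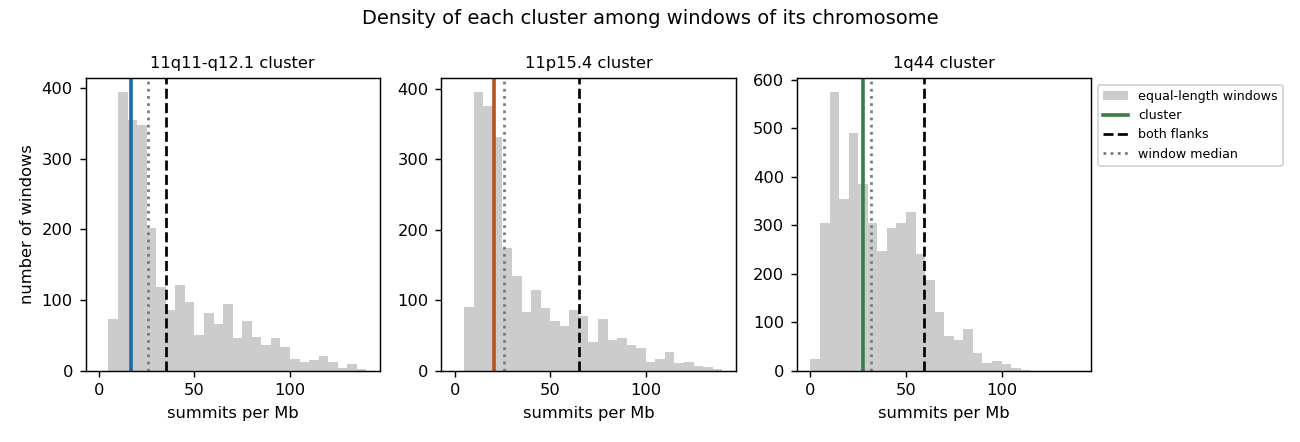
Number of equal-length windows of the same chromosome (y axis) by their density in summits per Mb (x axis), with the cluster as a coloured line, both flanks together as a dashed line and the median window as a dotted line. The cluster lines lie at 16.9, 20.6 and 27.7 summits per Mb, below but near the median window, and the flank lines lie above it.

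Inside the 11q11-q12.1 cluster the summits were few at the left and more numerous at the right. The 800.0 kb nearer the centromere held 9 summits and the 800.0 kb beyond held 18. The first summit lay at 55227683, 227.7 kb inside the bound, and was followed by the longest stretch without a summit in the cluster, 225.9 kb up to 55453582. Only 41 of the 5018 intervals between neighbouring summits on chromosome 11 are at least as long. The next stretches measured 152.1 kb, from 55753969, and 151.2 kb, from 55489135. Of 16 bins of 100 kb, 5 were empty, a share of 31.2% (exact Clopper-Pearson 95% interval 11.02 to 58.7). Outside the clusters 14.2% of the bins of chromosome 11 were empty, which lies within that interval.

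In the 11p15.4 cluster the side left of the globin genes was the thinner. The first 841.0 kb held 11 summits and the remaining 910.0 kb held 25. Its longest stretches without a summit were 215.5 kb from 5720657, 185.5 kb from 4980344 and 142.3 kb from 4838013. Of its 16 bins clear of the globin interval 2 were empty, a share of 12.5% (1.55 to 38.4), close to that of the chromosome. The outer bound was steep on the right side, with 11 summits in the last 500 kb inside and 55 in the first 500 kb outside. On the left side the same counts were 8 and 25. With 100 kb added to each end the cluster took in 55 summits, and its ratio to the median window rose from 0.800 to 1.10.

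The beta-globin interval inside the 11p15.4 cluster held 0 summits in 80 kb. It lay in a stretch of 138.3 kb without a summit, from 5177746 to 5316048. Among 80 kb bins of chromosome 11 outside the clusters 18.6% were empty, so 1 empty interval of that length is not set apart. The summit that closes this stretch, at 5316048, was the strongest of the cluster, with a score of 25.2.

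The 1q44 cluster had no empty bin among 13 (0%, 0 to 24.7), where chromosome 1 outside the clusters had 13.9%. Its longest stretches without a summit measured 130.7 kb from 248100547, 127.2 kb from 248469954 and 109.7 kb from 247910833. Summits crowded at the left bound, with 7 in the first 100 kb. In the first 500 kb inside that bound there were 18 summits and in the 500 kb outside it 44. On the right side no summit lay between 248855346 in the cluster and 249106173 outside it.

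The median score of each cluster was above that of its chromosome, though single members had low scores. The scores are those of the authors' peak caller, in a unit that the list leaves unnamed, and serve only to rank summits within it. Scores ran from 6.49 through a median of 10.2 to 26.5 in the 11q11-q12.1 cluster, from 3.29 through 10.2 to 25.2 in the 11p15.4 cluster and from 4.04 through 13.0 to 31.0 in the 1q44 cluster. The median was 8.28 on chromosomes 1 and 11 outside the clusters. The strongest member ranked 867 among the 105637 summits of the list, whose scores extend to 281.39. The 99 members are so small a part of the list that the lack of higher ranks is not read as a trait of the clusters.

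The strongest summits of the 11q11-q12.1 cluster lay at 56099793 with a score of 26.5, at 56169680 with 24.3 and at 55911313 with 18.9. The first and second of these are neighbours, 69.9 kb apart. In the 11p15.4 cluster the strongest after 5316048 were at 5611158 with 25.1 and at 5165863 with 23.1. The summits at 5165863 and 5316048 stand on either side of the globin genes. In the 1q44 cluster the strongest lay at 248100547 with 31.0, at 248469954 with 27.8 and at 248855346 with 27.4. The first and second of these open the longest peak-free stretches of the 1q44 cluster, and the third is its last summit.

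Scores in the top 25% of the nuclear list (12.2 or more) were frequent in the clusters. They made up 11 of 27 summits in the 11q11-q12.1 cluster, 40.7% (22.4 to 61.2), where 23.7% of summits on chromosome 11 outside the clusters reached that score. In the 11p15.4 cluster they made up 17 of 36, 47.2% (30.4 to 64.5). In the 1q44 cluster they made up 20 of 36, 55.6% (38.1 to 72.1), against 25.5% on chromosome 1. The interval lay above the share of the chromosome in the 11p15.4 and 1q44 clusters and included it in the 11q11-q12.1 cluster. In both flanks together the shares were 35.0%, 23.1% and 29.3%, in the order of the clusters. Here too the interval of the 11q11-q12.1 cluster included the share of its flanks, and the other intervals lay above theirs. For the top 10% of scores the share of the 11p15.4 cluster was 16.7%, 1.95 times that of its chromosome, and the interval (0.747 to 3.84) included 1. The threshold is itself a score that many summits share. Counted strictly above it, the shares were 29.6%, 41.7% and 52.8%, against 22.3% on the rest of chromosome 11 and 23.9% on that of chromosome 1. The ratio of the 11q11-q12.1 cluster to its chromosome was then 1.33, and its interval (0.618 to 2.255) included 1.

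Among equal-length windows, 18.9% had as large a share of high scores as the 11q11-q12.1 cluster, 7.905% as large a share as the 11p15.4 cluster and 2.28% as large a share as the 1q44 cluster. Sparse windows had larger shares in general. Over windows that do not overlap, the share of high scores and the density had a Spearman's rho of -0.511 (n = 78 on chromosome 11) and -0.493 (n = 173 on chromosome 1). Both measures come from the same list, and windows are not replicates.

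With only the top 25% of scores counted, the deficit against the flanks was smaller and no longer clear of 1. The ratios were 0.561 (0.252 to 1.16) for the 11q11-q12.1 cluster, 0.647 (0.354 to 1.12) for the 11p15.4 cluster and 0.882 (0.490 to 1.54) for the 1q44 cluster. Against the median window the 1q44 cluster then had 2.0 times the density (1.22 to 3.09), and 86.4% of windows had as few high-scoring summits or fewer.

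**Figure D3:**
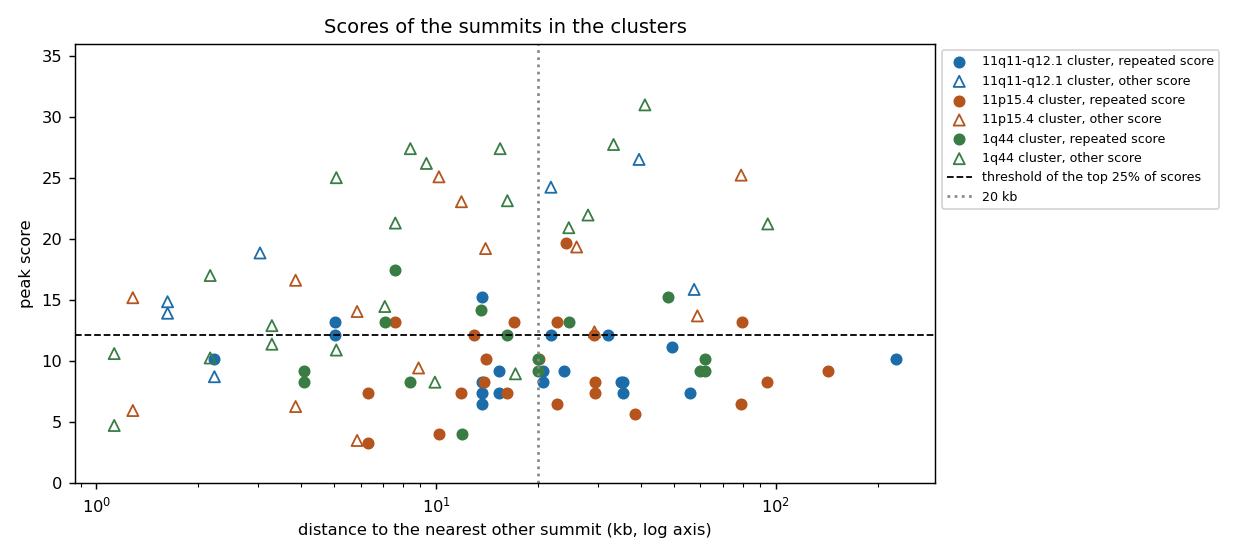
Peak score (y axis, no unit) of the 99 summits against distance to the nearest other summit (x axis, kb, log axis), by cluster; filled circles carry a score shared by at least 150 summits of the list and open triangles any other score. High scores occur on both sides of 20 kb, and the filled circles stand in rows at a few repeated values.

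Isolated summits were more common in the chromosome 11 clusters than on the rest of that chromosome. A summit was taken as isolated when no other lay within 20 kb. This held for 14 of 27 in the 11q11-q12.1 cluster, 51.9% (32.0 to 71.3), and for 16 of 36 in the 11p15.4 cluster, 44.4% (27.9 to 61.9), where the rest of chromosome 11 had 16.2%. In the 1q44 cluster it held for 10 of 36, 27.8% (14.2 to 45.2), where the rest of chromosome 1 had 17.9%, a value inside the interval. In the flanks of the 3 clusters together it held for 48 of 480. Among equal-length windows, 19.9% had as large an isolated share as the 11q11-q12.1 cluster, 25.7% as the 11p15.4 cluster and 41.3% as the 1q44 cluster. Windows as sparse as each cluster or sparser had median isolated shares of 58.3%, 52.2% and 44.4%, above those of the clusters. The median distance to the nearest summit was 20.6 kb, 15.1 kb and 10.9 kb in the 3 clusters, and the closest pairs lay 1.62 kb, 1.28 kb and 1.13 kb apart.

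These shares depended on the bounds and the distance chosen. With 100 kb taken off each end, the isolated share of the 1q44 cluster was 40.0%, which is 2.23 times that of its chromosome (1.18 to 3.42). With no other summit within 50 kb as the criterion, the ratio of the 11q11-q12.1 cluster was 2.49, and its interval (0.528 to 6.54) included 1. Over windows that do not overlap, the isolated share and the density had a Spearman's rho of -0.930 (n = 78) on chromosome 11 and -0.912 (n = 173) on chromosome 1. Whether anything beyond density bears on isolation was not tested.

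More than 1 in 2 members carried a score that recurs across the list. In the whole list 19 scores are each held by at least 150 summits. Of the 99 members 57 had one of these, 57.6% (47.2 to 67.4), most often 8.28 (9 members), 7.37 (8 members) and 9.22 (8 members). The share was 74.1% (53.7 to 88.9) in the 11q11-q12.1 cluster and 61.1% (43.5 to 76.9) in the 11p15.4 cluster, where the rest of chromosome 11 had 28.3%. In the 1q44 cluster it was 41.7% (25.5 to 59.2), where the rest of chromosome 1 had 29.7%. This interval includes the value of the chromosome. Repeated shares as large occurred in 15.92% of equal-length windows for the 11q11-q12.1 cluster, 30.85% for the 11p15.4 cluster and 50.03% for the 1q44 cluster. In windows as sparse as each cluster or sparser, the median repeated shares were 72.73%, 70.97% and 65.52%, in the same order. The 11q11-q12.1 cluster lay just above its median, and the 11p15.4 and 1q44 clusters lay below theirs. The repeated share also ran against density over windows that do not overlap, with a Spearman's rho of -0.914 (n = 78) on chromosome 11 and -0.859 (n = 173) on chromosome 1, and its dependence on anything else was not tested.

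**Figure D4:**
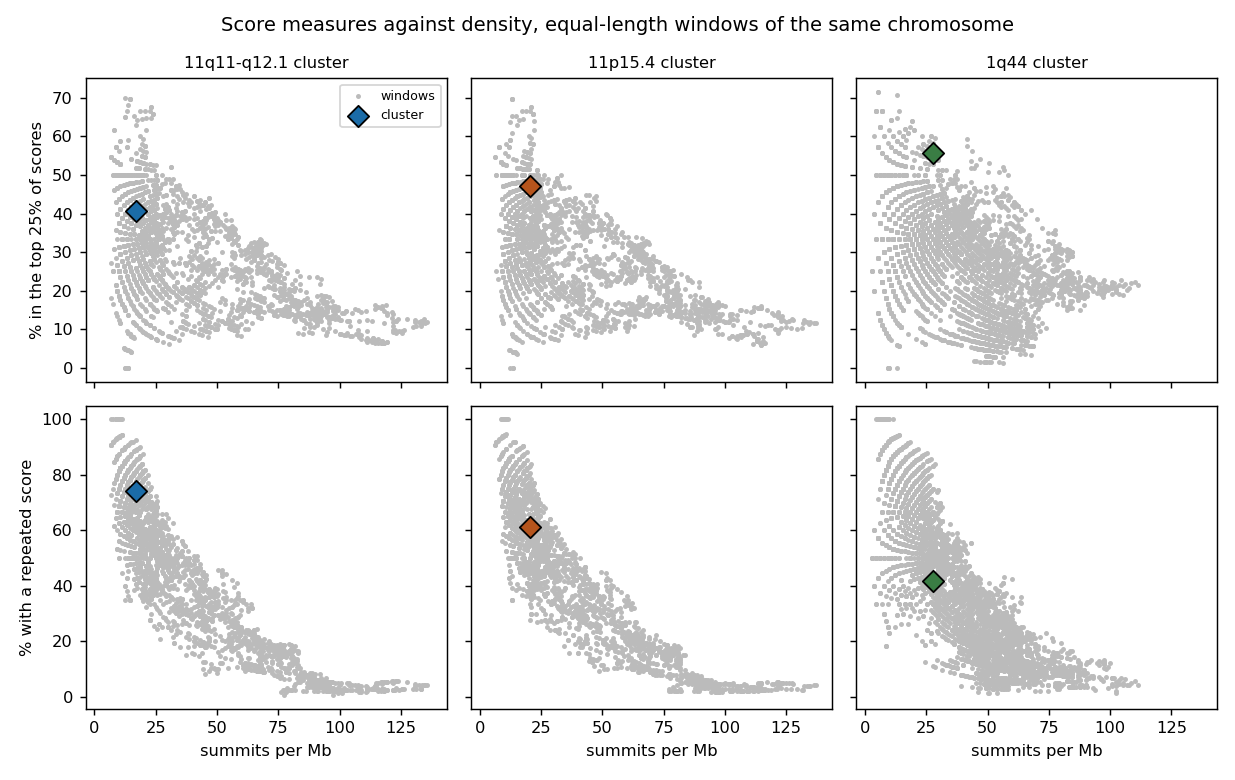
Share of summits in the top 25% of scores (upper row, percent) and with a repeated score (lower row, percent) against summits per Mb, for equal-length windows (grey points, which overlap one another) and each cluster (diamond). The clusters lie within the cloud of windows, with the 1q44 cluster near its upper edge for high scores at 55.6%.

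The members were also set beside other summits of chromosomes 1 and 11 at like distances to the nearest summit. With the nearest under 5 kb, 17.6% (3.80 to 43.4) of 17 members had a repeated score, against 9.04% of 4659 others. At 5 to 10 kb the shares were 44.4% (21.5 to 69.2) of 18 members and 24.9% of 3480 others. Both intervals include the share of the others. With the nearest at 10 to 20 kb, 18 of 24 members had a repeated score, 75% (53.3 to 90.2), against 40.6% (38.7 to 42.5) of 2680 others. At 20 to 50 kb the shares were 70.4% (49.8 to 86.3) of 27 members and 59.4% of 1656 others. Beyond 50 kb they were 69.2% (38.6 to 90.9) of 13 members and 76.1% of 599 others, so only at 10 to 20 kb did the interval exclude the others, and the direction was not the same at every distance. High scores were more frequent in members at 5 to 10 kb, with 61.1% (35.7 to 82.7) of 18 against 23.7% of 3480. Under 5 kb they were 41.2% (18.4 to 67.1) of 17 against 16.5% of 4659. At 10 to 20 kb, 20 to 50 kb and beyond 50 kb the intervals of the members (22.1% to 63.4%, 35.3% to 74.5% and 13.9% to 68.4%) included the shares of the others (31.2%, 36.3% and 35.9%).

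The clusters were also set beside other regions. Among themselves the 3 clusters had overlapping intervals for density, high scores, repeated scores and isolation. The epidermal differentiation complex on chromosome 1 (151.95 to 153.61 Mb in GRCh37), a cluster of skin barrier genes, carried 46.4 summits per Mb (36.6 to 58.0), and this interval overlaps that of the 1q44 cluster only at its edge. High scores were as frequent there, at 49.4% (37.8 to 61.0) of 77 summits, and repeated scores made up 33.8%. The interior of the long arm of chromosome 4 (53 to 186 Mb) carried 14.3 summits per Mb (13.6 to 14.9) over 1898 summits, with 60.9% repeated scores, 47.8% isolated and 30.9% high scores. The 11q11-q12.1 cluster had intervals that included all 4 of these values. Those of the 11p15.4 cluster included 3 and just missed the density, at 14.40 to 28.5 summits per Mb. The 1q44 cluster had intervals that excluded all 4, being denser, with more high scores and fewer repeated scores and isolated summits.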

How the data were processed

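The authors deposited 1 list of summits for the series, each with a position and a peak score, per the file headers. The end of each 1 bp interval was taken as the 1-based summit. The list is named after the peak caller MACS. No source used here gives its version, its threshold, the aligner, how duplicates were treated or whether IgG was the control. CASAVA 1.4 and the assemblies mm9 and GRCh38.p12 are named in the submitters' processing notes, but 1093 summits lie past a GRCh38 chromosome end and 0 past a GRCh37 end. Positions are therefore given in GRCh37. Columns of other samples numbered 0.

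The members and measures were chosen with earlier results of these data known. Repeated scores, distance classes, non-overlapping windows, promoters and the strict score threshold were chosen after seeing the data. The random windows of the original rule were replaced by all windows on a 50 kb grid, so nothing was drawn at random. The 3 strongest summits, the 3 longest peak-free stretches, the closest pair and the summits at the bounds were named by rule. Counting was tested on simulated lists with a planted sparse window. With 1 library per antibody no test over samples was possible, and no p-value is given. Python 3.11.15, numpy 2.4.6, pandas 2.3.3 and scipy 1.17.1 were used. No GRCh37 sequence or annotation was used.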

Additional observations from a re-analysis of the deposited data

How the results depend on the processing

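Of 69 alternatives over 18 results, 63 stayed within the interval of the value reported, 6 moved outside it and 0 turned a value whose interval excluded 1. Counting only the top 25% of scores moved 4 of them: the density against windows went to 1.21 for the 11p15.4 cluster and 2.0 for the 1q44 cluster, and the density against flanks to 0.647 and 0.882. In the top 10% of scores the share of the 1q44 cluster was 3.41 times that of its chromosome, in place of 2.18. Among the shares, 3 intervals changed sides of 1: those of the high-score share of the 11p15.4 cluster (top 10%, 1.95) and the isolation of the 11q11-q12.1 cluster (50 kb, 2.49) then included 1, and that of the isolation of the 1q44 cluster (100 kb off each end, 2.23) then excluded it. Of the densities against flanks, all 3 intervals included 1 in the top 25% of scores, with 0.561 for the 11q11-q12.1 cluster. In bins of 200 kb the 11p15.4 cluster had 0 empty bins of 8. The cause of these moves was not tested. For the 11q11-q12.1 cluster the ratio to the median window ran from 0.609 to 0.846 over 6 alternatives, and its interval included 1 with close summits counted once, with 100 kb off each end and in the top 25% of scores. Flanks of 1 Mb and 4 Mb gave ratios from 0.298 to 0.511 over the 3 clusters. With 27 to 36 summits a cluster, counting error limits every share. No paired analysis was possible because the result comes from 1 list without replicates.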
